A study of Mus musculus with 10 samples.

Results

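The aryl hydrocarbon receptor pathway was followed in T cells that make IL-22 through 9 genes, taken by symbol from the 23393 named genes of the table: the receptor gene Ahr, its partner Arnt, the repressor genes Ahrr and Tiparp, and the target or enzyme genes Nqo1, Asb2, Cyp1a1, Cyp1b1 and Gstt1. All 9 were found. The study asked how loss of 1 copy of Riok2, which encodes an atypical kinase of ribosome assembly, alters the RNA of these cells. Naive CD4+ T cells from spleens of 10-week-old C57BL/6 mice had been stimulated with antibodies to CD3 and CD28 with IL-6 (30 ng/mL), IL-23 and IL-1 beta (each at 20 ng/mL) and 400 nM FICZ, a high-affinity ligand of the receptor, with antibodies to IL-4 and IFN-gamma, and each library was made from 5000 sorted CD4+ cells in which the tdTomato allele at Il22 was on. The wild-type group (WT, 5 libraries) had the genotype Riok2+/+ Vav1cre/+ Il22tdtomato/+. The haploinsufficient group (Riok2hKO, 5 libraries) had the genotype Riok2f/+ Vav1cre/+ Il22tdtomato/+. Both groups therefore carried Cre, which the Vav1 promoter drives in blood-forming cells in general and not in T cells alone, both carried 1 reporter allele, and both received the ligand; no culture without FICZ was analysed here. Whether each library had its own mouse or culture is not stated in the labels, so the p-values measure the spread between libraries, which may be technical.

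The aryl hydrocarbon receptor is a ligand-activated transcription factor of the bHLH-PAS family. It waits in the cytosol in a complex with HSP90 and the cochaperone p23. On binding planar aromatic ligands it moves to the nucleus, pairs with ARNT and binds the dioxin response element. Classical targets encode the enzymes that oxidise and clear its ligands, and feedback is given by the repressor AHRR and by the ADP-ribosyltransferase TIPARP. In T helper cells that make IL-17 or IL-22 the receptor is known for its part in inducing Il22.

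Of the 6 genes that could be tested, Nqo1 and Tiparp were higher in Riok2hKO and none was lower. Nqo1 kept its call in all 22 alternative fits, and Tiparp in 12 of them. The receptor gene itself was listed below 1 TPM in all 10 libraries. TPM is a transcript's share of all transcripts, corrected for its length and scaled to 1000000, so levels can be compared between genes, but it keeps no sequencing depth and no counting error can be given. A gene entered the test if it reached 1 TPM in at least 5 libraries. The 6 genes Arnt, Tiparp, Nqo1, Asb2, Cyp1a1 and Gstt1 did so, and Ahr, Ahrr and Cyp1b1 did not. Values were compared as log2(TPM + 1) with limma over all 10332 tested genes, and a gene is said to have risen or fallen at a Benjamini-Hochberg adjusted p under 0.05. By that rule 2 of the 6 tested members rose and 0 fell, beside 9.58% of all tested genes that rose and 7.55% that fell (17.1% in either direction). The median log2 fold change was 0.19 over the 6 members and -0.0060 over all tested genes. With 6 genes, chosen with earlier results known, these counts single out nothing about the pathway.

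The dioxin response element has the core GCGTG, which was searched on both strands in the RefSeq promoter windows of GRCm38.p6, the mm10 assembly, from 250 bases before the annotated start to 50 bases after it. Windows were found for 8 of the 9 genes, all but Ahr, and the core occurred in those of 5, namely Arnt, Ahrr, Tiparp, Cyp1a1 and Cyp1b1. Of all 32851 windows 32.4% held it, so its presence is common. The longer form TNGCGTG, held by 5.07% of windows, overlapped the core and occurred among these genes in Ahrr alone. The antioxidant response element core TGACNNNGC, which the stress factor NRF2 binds, was in 12.4% of windows and occurred here in that of Arnt. The windows below are those of both genes that rose and of both cytochrome P450 genes, given 5′ to 3′ on the strand of the gene with the core GCGTG or its reverse complement in capitals. They lie at chr8:107403156-107403455 (Nqo1, minus strand), chr3:65528197-65528496 (Tiparp, plus strand), chr9:57697363-57697662 (Cyp1a1, plus strand) and chr17:79715012-79715311 (Cyp1b1, minus strand).
Nqo1: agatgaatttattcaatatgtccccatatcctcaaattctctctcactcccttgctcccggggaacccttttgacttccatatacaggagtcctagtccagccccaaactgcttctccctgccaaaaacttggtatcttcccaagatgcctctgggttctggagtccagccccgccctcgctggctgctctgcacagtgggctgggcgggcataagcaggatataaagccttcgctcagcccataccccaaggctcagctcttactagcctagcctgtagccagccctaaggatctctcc
Tiparp: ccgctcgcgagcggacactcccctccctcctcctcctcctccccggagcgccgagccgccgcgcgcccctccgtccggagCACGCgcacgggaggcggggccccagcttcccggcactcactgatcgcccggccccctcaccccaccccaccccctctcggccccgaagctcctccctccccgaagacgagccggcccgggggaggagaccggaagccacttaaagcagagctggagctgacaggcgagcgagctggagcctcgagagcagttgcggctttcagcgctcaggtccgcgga
Cyp1a1: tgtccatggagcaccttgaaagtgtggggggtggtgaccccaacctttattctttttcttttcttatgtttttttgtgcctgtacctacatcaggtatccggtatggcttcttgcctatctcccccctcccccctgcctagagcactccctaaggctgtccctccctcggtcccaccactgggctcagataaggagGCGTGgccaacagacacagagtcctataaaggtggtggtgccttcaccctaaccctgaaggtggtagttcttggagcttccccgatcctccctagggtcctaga
Cyp1b1: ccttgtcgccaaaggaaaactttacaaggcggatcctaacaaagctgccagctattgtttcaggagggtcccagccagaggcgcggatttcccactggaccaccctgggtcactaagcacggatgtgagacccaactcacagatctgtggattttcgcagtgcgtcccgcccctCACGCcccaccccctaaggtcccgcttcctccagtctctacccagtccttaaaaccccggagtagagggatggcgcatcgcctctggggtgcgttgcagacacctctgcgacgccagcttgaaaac
The core began 170 bases before the start in the Tiparp window, 54 bases before it in that of Cyp1a1 and 76 in that of Cyp1b1. The start used for the Cyp1a1 window lies inside the Cyp1a1 locus given below, not at its first base. The Nqo1 window held neither the core nor the NRF2 motif. A match shows only that these letters are present, and elements farther away were not searched.

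The libraries were similar in composition, with 13948 to 14695 genes above 0 TPM. WT replicate 1 stood apart from the other 4 WT libraries on the first principal component (-21.9 against -9.58 to -8.06), so results are given without it where its removal ends a call. Riok2 itself was 28.3 ± 1.57 TPM in WT and 13.6 ± 1.71 TPM in Riok2hKO, with no overlap, so the target gene went with the labels. All 12 markers of the sorted cells entered the test, and 7 of them rose and 2 fell, beside 9.58% and 7.55% of all tested genes. Cd4 measured 161 ± 5.98 TPM in WT and 166 ± 7.21 in Riok2hKO (SD, n = 5, limma adjusted p = 0.443), whereas the T cell receptor complex genes Cd3d and Cd3g fell, from 319 ± 2.65 to 278 ± 5.56 TPM (adjusted p = 0.000149) and from 308 ± 16.8 to 266 ± 9.87 TPM (0.00427). Summed over their lists, B cell markers came to 1.78 to 3.11 TPM in WT and 1.30 to 2.35 in Riok2hKO, and myeloid and dendritic cell markers to 3.45 to 5.61 and 3.75 to 5.04, with S100a8 and S100a9 at 0 in all 10 libraries. CD8 and natural killer cell markers summed to 19.0 to 22.2 TPM in WT and 12.9 to 16.4 in Riok2hKO. Most of it came from Cd8b1, which fell from 18.0 ± 1.00 to 12.7 ± 1.5 TPM (limma adjusted p = 0.00127), while Cd8a was at most 0.48 TPM. Fibroblast and endothelial markers summed to 7.57 to 11.7 and 8.70 to 11.6 TPM, nearly all of it Pecam1, which T cells also express. The part of other cells in the results was not tested. In such bulk RNA, fewer cells with a transcript and less transcript per cell cannot be told apart.

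**Figure D1:**
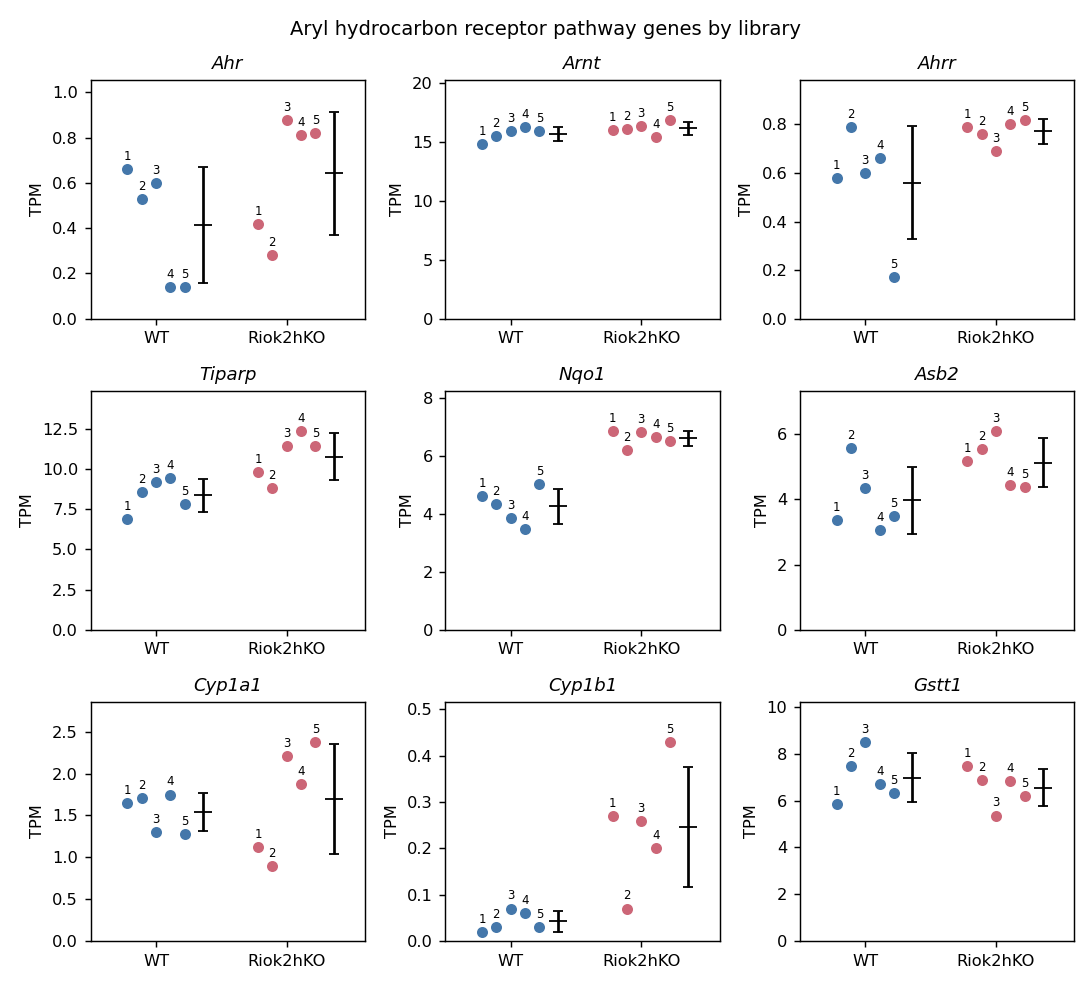
TPM of the 9 genes in each library, with WT in blue and Riok2hKO in red, numbered by replicate; the bars give mean ± SD of 5 libraries and every axis starts at 0. Nqo1 is the 1 gene whose groups do not overlap (3.47 to 5.01 against 6.20 to 6.86 TPM), and Ahr and Cyp1a1 are lowest within Riok2hKO in replicates 1 and 2.

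Ahr (chromosome 12, 35497979 to 35534989, minus strand) was listed at 0.66, 0.53, 0.60, 0.14 and 0.14 TPM in WT replicates 1 to 5. In Riok2hKO it was listed at 0.42, 0.28, 0.88, 0.81 and 0.82 TPM. Replicates 4 and 5 were low in WT and replicates 1 and 2 in Riok2hKO, so both groups were split and their ranges overlapped. The means were 0.414 ± 0.254 and 0.642 ± 0.272 TPM (SD, n = 5), a difference of 0.22 on the log2(TPM + 1) scale that did not pass a two-sided exact permutation test over every assignment of the libraries (p = 0.222, not adjusted). At the mean over all libraries, 0.528 TPM, the receptor gene ranked above 39.5% of genes with any TPM. No difference in receptor mRNA was detectable at such low values.

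Arnt (chromosome 3, 95434367 to 95497240, plus strand), whose product is the obligate nuclear partner, was the most abundant of the 9. Its TPM values were 14.8, 15.5, 16.0, 16.3 and 15.9 in WT and 16.0, 16.2, 16.4, 15.4 and 16.9 in Riok2hKO. The groups overlapped over most of their range. The log2 fold change was 0.040 with a 95% interval of -0.059 to 0.14 (limma adjusted p = 0.596).

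In the list of the receptor complex, 1 of 5 tested genes rose and 0 fell, a share near the 17.1% called over all tested genes, with a median log2 fold change of 0.040. The gene that rose was Hsp90aa1, which encodes the inducible HSP90 isoform, from 629.9 ± 9.07 to 667 ± 6.74 TPM (log2 fold change 0.083, limma adjusted p = 0.00963), a shift small in size with no overlap of the groups, which was not called when limma was run with no trend. The more abundant Hsp90ab1 measured 2954 ± 53.1 and 2932 ± 58.8 TPM (adjusted p = 0.737) and Ptges3, the p23 gene, 301 ± 22.6 and 314 ± 14.7 (0.431). Arnt2 and Src were below 1 TPM in every library. These chaperone genes thus stood far above the receptor gene in TPM. ARNT also pairs with other bHLH-PAS proteins. Of the 5 tested genes for members of that family 1 rose and 0 fell, beside 9.58% and 7.55% of all tested genes. Hif1a, the oxygen-sensitive partner, went from 89.3 ± 5.54 to 115 ± 6.71 TPM (log2 fold change 0.36, adjusted p = 0.000606). The clock genes Arntl and Clock did not pass (adjusted p = 0.194 and 0.841), nor did Hif3a (0.958). Of 16 genes for coregulators and turnover of the receptor 1 rose and 0 fell, beside the same 9.58% and 7.55%. The p160 coactivator gene Ncoa3 rose from 19.7 ± 0.729 to 22.9 ± 1.2 TPM (adjusted p = 0.0122). Next by p were Ncoa7, at 8.99 ± 1.03 and 6.85 ± 1.49 TPM (adjusted p = 0.0507), the acetyltransferase gene Ep300 at 7.68 ± 0.272 and 8.70 ± 0.497 (0.0674) and Ncoa2 at 13.4 ± 0.861 and 11.7 ± 0.839 (0.0718). Depending on the setting, 0 to 2 genes of this list were called lower.

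Of the 2 genes for feedback repressors, Tiparp rose and Ahrr was too low to enter the test. Tiparp (chromosome 3, 65528447 to 65555518, plus strand) encodes the ADP-ribosyltransferase that modifies the receptor and shortens its action. It measured 6.91, 8.56, 9.19, 9.44 and 7.86 TPM in WT replicates 1 to 5. In Riok2hKO it measured 9.83, 8.81, 11.5, 12.4 and 11.4 TPM. The groups overlapped through Riok2hKO replicate 2 alone, which lay below WT replicates 3 and 4, and 4 of 5 Riok2hKO libraries exceeded the highest WT value. The rise was from 8.39 ± 1.03 to 10.8 ± 1.44 TPM, a log2 fold change of 0.33 (SE 0.0986, 95% interval 0.11 to 0.54, limma adjusted p = 0.0403), close to the threshold. Without WT replicate 1, the lowest of its group, the fold change was 0.27 and the adjusted p 0.0678, and the call was also lost without WT replicate 2 or 5 or Riok2hKO replicate 3, 4 or 5 (adjusted p = 0.0648 to 0.0994). A long noncoding gene on the other strand, 4931440P22Rik, overlaps the locus; it was at most 0.18 TPM, and the protocol does not mark strand.

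Ahrr (chromosome 13, 74211118 to 74292331, minus strand), whose product competes with the receptor for ARNT, was listed at 0.58, 0.79, 0.60, 0.66 and 0.17 TPM in WT. In Riok2hKO it was listed at 0.79, 0.76, 0.69, 0.80 and 0.82 TPM. The Riok2hKO libraries lay close together near the upper end of the WT range, and WT replicate 5 was far below the rest. The exact permutation test gave p = 0.0317, not adjusted, for a difference of 0.20 on the log2(TPM + 1) scale. In a limma fit of all 18309 genes above 0 TPM in any library the adjusted p was 0.308, and without WT replicate 5 that difference was 0.098, so it rests largely on 1 library.

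Nqo1 showed the clearest difference of the 9. Nqo1 (chromosome 8, 107388225 to 107403205, minus strand) encodes a quinone reductase that is induced both through the aryl hydrocarbon receptor and through NRF2. It measured 4.62, 4.33, 3.86, 3.47 and 5.01 TPM in WT replicates 1 to 5. In Riok2hKO it measured 6.86, 6.20, 6.81, 6.63 and 6.5 TPM. Every Riok2hKO library lay above every WT library, as 8.72% of all tested genes did, and 14.6% were separated in either direction. The mean rose from 4.26 ± 0.608 to 6.6 ± 0.266 TPM, to 155% of WT (log2 fold change 0.54, SE 0.0817, 95% interval 0.36 to 0.72, limma adjusted p = 0.00118; exact permutation p = 0.00794, the smallest that 5 against 5 allows). The spread between Riok2hKO libraries was under that between WT libraries.

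**Figure D2:**
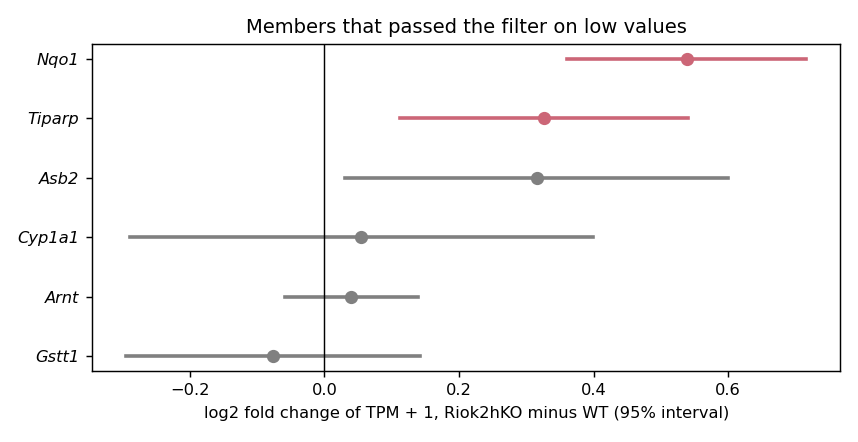
Log2 fold change of TPM + 1 (Riok2hKO minus WT) with its 95% interval from limma for the 6 genes that entered the test, in red where the adjusted p was under 0.05. The intervals of Nqo1 (0.36 to 0.72), Tiparp (0.11 to 0.54) and Asb2 (0.031 to 0.60) lie above 0, and those of Arnt, Cyp1a1 and Gstt1 cross it.

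Because Nqo1 is shared with NRF2, the other genes of that programme were read beside it. Of 15 tested NRF2 targets 5 rose, 1 fell and 9 did not pass, beside 9.58% of all tested genes that rose and 7.55% that fell. The median log2 fold change was 0.11 over these targets and -0.0060 over all tested genes. Those that rose encode a subunit of the enzyme that starts glutathione synthesis (Gclm), the reductases of glutathione and thioredoxin, and both ferritin chains. The glutathione reductase gene Gsr went from 23.9 ± 5.71 to 45.1 ± 6.38 TPM (log2 fold change 0.91, adjusted p = 0.00226). Txnrd1, for thioredoxin reductase, went from 71.8 ± 11.1 to 106 ± 9.35 TPM (0.56, adjusted p = 0.00275). Fth1, for ferritin heavy chain, went from 875 ± 19.5 to 1030.5 ± 35.1 TPM (0.23, adjusted p = 0.000144). All 3 were called, as Nqo1 was, with any 1 library left out. Gclm and Ftl1 rose too, and Sqstm1, an autophagy receptor gene, fell from 185 ± 10.2 to 155 ± 8.45 TPM. The classical targets Hmox1 (18.6 ± 2.59 and 22.8 ± 5.49 TPM, adjusted p = 0.198), Gclc (0.954), Slc7a11 (0.920) and Srxn1 (0.758) did not pass. Nfe2l2, which encodes NRF2 and is itself a reported target of the receptor, measured 26.5 ± 2.21 and 29.8 ± 1.47 TPM (log2 fold change 0.17, adjusted p = 0.0691). Which of the 2 pathways the Nqo1 difference goes with was not tested.

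Cyp1a1, the target most used as a readout of receptor activity, showed no detectable difference. Cyp1a1 (chromosome 9, 57687928 to 57703824, plus strand) encodes the P450 enzyme that breaks down FICZ. Its TPM values were 1.65, 1.71, 1.30, 1.75 and 1.28 in WT. In Riok2hKO they were 1.12, 0.89, 2.21, 1.88 and 2.38. The WT libraries lay close together, whereas Riok2hKO replicates 1 and 2 were below every WT library and replicates 3, 4 and 5 above every one. The means were 1.54 ± 0.229 and 1.70 ± 0.661 TPM, with a log2 fold change of 0.055 and a 95% interval of -0.29 to 0.40 (limma adjusted p = 0.850). The same 2 Riok2hKO libraries also held the lowest Ahr and Tiparp values of that group, while Nqo1 there was 6.86 and 6.20 TPM, the highest and the lowest of its group. On the first principal component these 2 libraries had the lowest scores of their group, with no clear gap to the next (9.06 and 9.879, against 9.885 to 15.5 in the other 3). They did not stand apart in the number of genes above 0 TPM (14405 and 14232, against 14183 to 14623).

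Cyp1b1 (chromosome 17, 79706940 to 79715061, minus strand), the extrahepatic relative of Cyp1a1, was the lowest of the 9. It was listed at 0.02, 0.03, 0.07, 0.06 and 0.03 TPM in WT. In Riok2hKO it was listed at 0.27, 0.07, 0.26, 0.20 and 0.43 TPM. All Riok2hKO libraries except replicate 2, which equalled the highest WT value, lay above WT. The mean in Riok2hKO was 5.86 times that in WT, yet the difference was 0.25 on the log2(TPM + 1) scale (exact permutation p = 0.0159, not adjusted). In the fit without a filter, where 7.28% of genes were called, the adjusted p was 0.0372. It ranged from 0.00795 to 0.0811 with 1 library left out and was 0.05 or more without any 1 of the WT libraries or without Riok2hKO replicate 1, 3 or 4. The reads behind values of this size are unknown.

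The remaining enzyme and ligase genes did not pass. Asb2 (chromosome 12, 103321142 to 103356001, minus strand) encodes the substrate-binding subunit of a cullin ubiquitin ligase. It measured 3.36, 5.58, 4.34, 3.06 and 3.50 TPM in WT. In Riok2hKO it measured 5.16, 5.55, 6.10, 4.44 and 4.36 TPM. WT replicate 2 lay among the Riok2hKO libraries, and the other 4 WT libraries were below all of them. The log2 fold change was 0.32 with a 95% interval of 0.031 to 0.60 (limma adjusted p = 0.122), and 0.42 without WT replicate 2 (adjusted p = 0.0259). The long noncoding gene Gm15523 lies within the locus on the other strand and was not analysed here. Of 10 tested genes of the ASB family and its ligase partners 1 rose and 0 fell, beside 9.58% and 7.55% of all tested genes. The gene that rose was Asb7 (2.26 ± 0.117 to 2.78 ± 0.179 TPM, adjusted p = 0.0469). It was no longer called in 9 of the 10 fits with 1 library left out (without WT replicate 3 the adjusted p was 0.0495).

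Gstt1 (chromosome 10, 75783813 to 75798584, minus strand) encodes a theta-class glutathione S-transferase. It measured 5.85, 7.47, 8.51, 6.71 and 6.33 TPM in WT and 7.47, 6.87, 5.36, 6.82 and 6.21 TPM in Riok2hKO. The highest and the lowest value were both from replicate 3 of a group, and the ranges overlapped. The log2 fold change was -0.077, with a 95% interval of -0.29 to 0.14 (limma adjusted p = 0.649). Among 11 other tested glutathione S-transferase genes 0 rose and 2 fell, beside 9.58% and 7.55% of all tested genes. Gstp1 fell from 499.7 ± 2.12 to 465 ± 15.8 TPM (adjusted p = 0.0143) and Gstt2 from 108 ± 4.22 to 97.0 ± 7.16 (0.0474). Gstp1 was called with any 1 library left out, whereas Gstt2 lost its call in 8 of 10 such fits, all but those without WT replicate 1 or Riok2hKO replicate 4, with adjusted p of up to 0.109. Gstt3, the nearest of the others by p, measured 12.7 ± 1.63 and 10.4 ± 1.15 TPM (adjusted p = 0.0793).

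**Figure D3:**
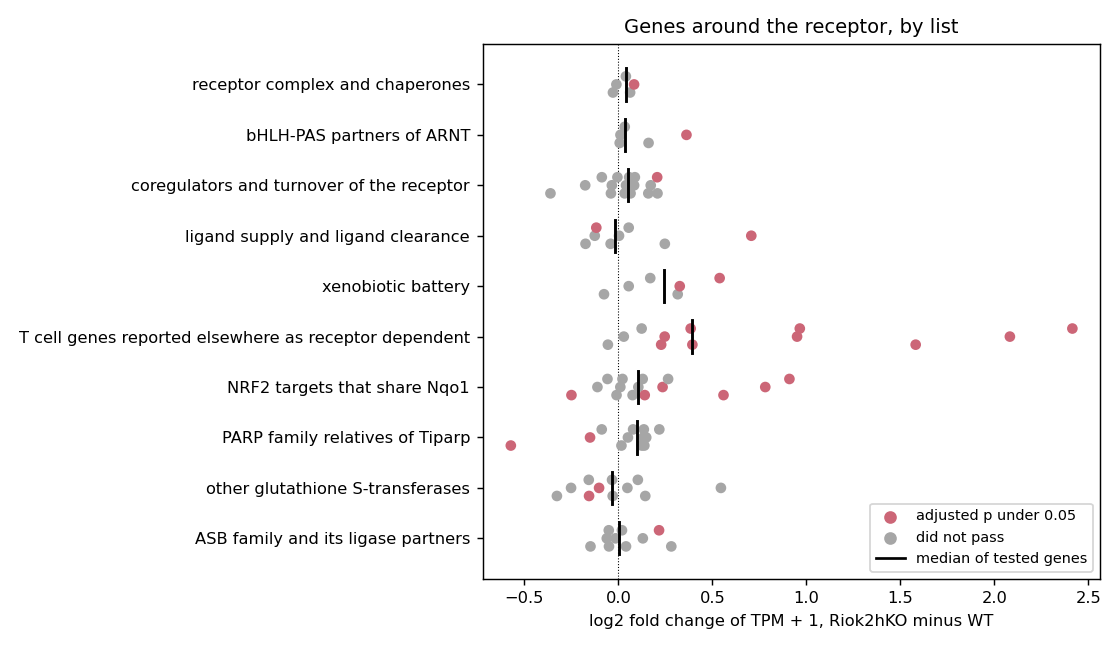
Log2 fold change of TPM + 1 (Riok2hKO minus WT) of every tested gene in 10 lists around the receptor, in red where the limma adjusted p was under 0.05, with the median of each list as a black bar. The medians run from -0.034 (other glutathione S-transferases) to 0.39 (T cell genes reported elsewhere as receptor dependent); some genes are in more than 1 list.

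Ordered by mean TPM over all libraries, Arnt (15.9) came first and stood clear of the rest. Tiparp (9.59), Gstt1 (6.76), Nqo1 (5.43) and Asb2 (4.54) followed, each with a range over libraries that overlapped that of the next. Cyp1a1 (1.62) lay between these and the 3 lowest, Ahrr (0.666), Ahr (0.528) and Cyp1b1 (0.144), whose ranges overlapped. The 9 transcripts together came to 38.5 to 44.5 TPM in WT and 45.6 to 50.1 TPM in Riok2hKO.

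Genes that make, take up or clear ligands were read next as 1 list, which includes Cyp1a1 and Cyp1b1. Endogenous ligands come from tryptophan through IDO1, TDO2 and IL4I1, and tryptophan and kynurenine enter T cells by the SLC7A5-SLC3A2 transporter. Of 8 tested genes of the list 1 rose and 1 fell, beside 9.58% and 7.55% of all tested genes. Slc3a2 fell from 204 ± 6.14 to 188 ± 6.32 TPM (log2 fold change -0.12, limma adjusted p = 0.0236), and lost its call without WT replicate 3 or Riok2hKO replicate 1 or 4, with adjusted p of up to 0.0563. Its partner Slc7a5 measured 16.2 ± 1.98 and 15.7 ± 0.898 TPM (adjusted p = 0.760). Kmo, for kynurenine 3-monooxygenase, went from 0.558 ± 0.211 to 1.55 ± 0.417 TPM (0.71, adjusted p = 0.00403), but it reached 1 TPM only in the 5 Riok2hKO libraries and so entered the test through the group in which it was high. Tdo2 was listed at 0 in all libraries, and Ido1 measured 0.152 ± 0.132 and 0.728 ± 0.334 TPM, under the limit for the test. In the limma fit without a filter, 7.28% of all genes were called in either direction. Of the 18 genes of the list, 2 of which were at 0 in every library, that fit called 3 higher and 1 lower. Those higher were Kmo (adjusted p = 0.00932), Ido1 (0.0238) and the member Cyp1b1 (0.0372), which is in the list for ligand clearance. The gene called lower was Slc3a2 (0.0360).

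The xenobiotic list held 16 genes, among them 7 of the members, and 10 of the 16 did not enter the test, Gsta1 and Gsta2 being listed at 0 in every library, and the genes of that list that rose were Nqo1 and Tiparp again. Among the untested, the glucuronosyltransferase gene Ugt1a6a was named after its values were seen. It was 0.21 to 0.48 TPM in WT and 0.52 to 0.94 in Riok2hKO, so the groups did not overlap. Such a separation was shown by 8.72% of all tested genes, a share that does not cover genes under the filter, such as Ugt1a6a. It shares exons with Ugt1a6b and Ugt1a7c, so its separate value is uncertain. Other untested genes went both ways. Ugt1a7c had a higher mean in Riok2hKO (0.578 and 0.856 TPM, with overlapping groups), as did the members Ahrr and Cyp1b1 described above. Lower or nearly equal means were found for Xdh (0.528 ± 0.126 and 0.328 ± 0.170 TPM), Ugt1a6b (0.402 and 0.222) and Aldh3a1 (0.222 and 0.218). Cyp1a2 was at most 0.09 TPM. Of 12 tested relatives of Tiparp in the PARP family 0 rose and 2 fell, beside 9.58% and 7.55% of all tested genes. Parp8 fell from 6.17 ± 0.702 to 3.82 ± 0.487 TPM (log2 fold change -0.57, adjusted p = 0.00150), and Parp2 from 70.4 ± 2.33 to 63.3 ± 3.12 (0.0236), the latter losing its call without WT replicate 2 or Riok2hKO replicate 1, 3 or 4 (adjusted p of up to 0.0564). The interferon-responsive Parp14 and Zc3hav1 did not pass (adjusted p = 0.0851 and 0.101). In the list of T cell genes that other work ties to the receptor, 9 of 12 tested genes rose and 0 fell (median log2 fold change 0.39), beside 9.58% of all tested genes that rose. The 9 include Il1r1, an IL-1 receptor gene, which was 0.56 to 1.03 TPM in WT and 2.15 to 3.55 in Riok2hKO and so entered the test mainly through the group in which it was high. The list was led by Il22, which was 44.0 to 78.4 TPM in WT and 265 to 358 TPM in Riok2hKO and on whose reporter the cells had been sorted. Il23r, for the IL-23 receptor, went from 2.75 ± 0.998 to 14.6 ± 2.19 TPM (adjusted p = 8.87e-06), the cytokine gene Il21 from 22.0 ± 1.80 to 43.6 ± 4.55 (1.28e-05) and Lef1, for a T cell transcription factor, from 127 ± 2.79 to 149 ± 1.14 (0.000164). Il10, Maf, Prdm1, Entpd1, Gpr15, Kit and Foxp3 of that list did not enter the test. The list was drawn up with the cytokine results known, and cytokine genes have other inducers in this medium.

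Genes whose profile over the 10 libraries was most like that of a member were found by the root mean square difference of standardised log2 values, in units of SD. The search covered 7416 or 7417 tested genes whose mean reached 5 TPM, with unnamed gene models and Rik clones left out. For Nqo1 these were Csrnp1 (0.179; 17.7 and 29.8 TPM in WT and Riok2hKO), Nktr (0.197) and Hsp90b1 (0.207). Tiparp was most like Rad23b (0.254; 15.9 and 20.4 TPM), Mipep (0.270) and Parg (0.286). Ahr had no match as close, with Pcyox1 (0.376; 7.71 and 8.35 TPM), Ifngr2 (0.427) and Slc25a36 (0.440) nearest. A small difference among so many genes is a description of these libraries and carries no test.

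**Figure D4:**
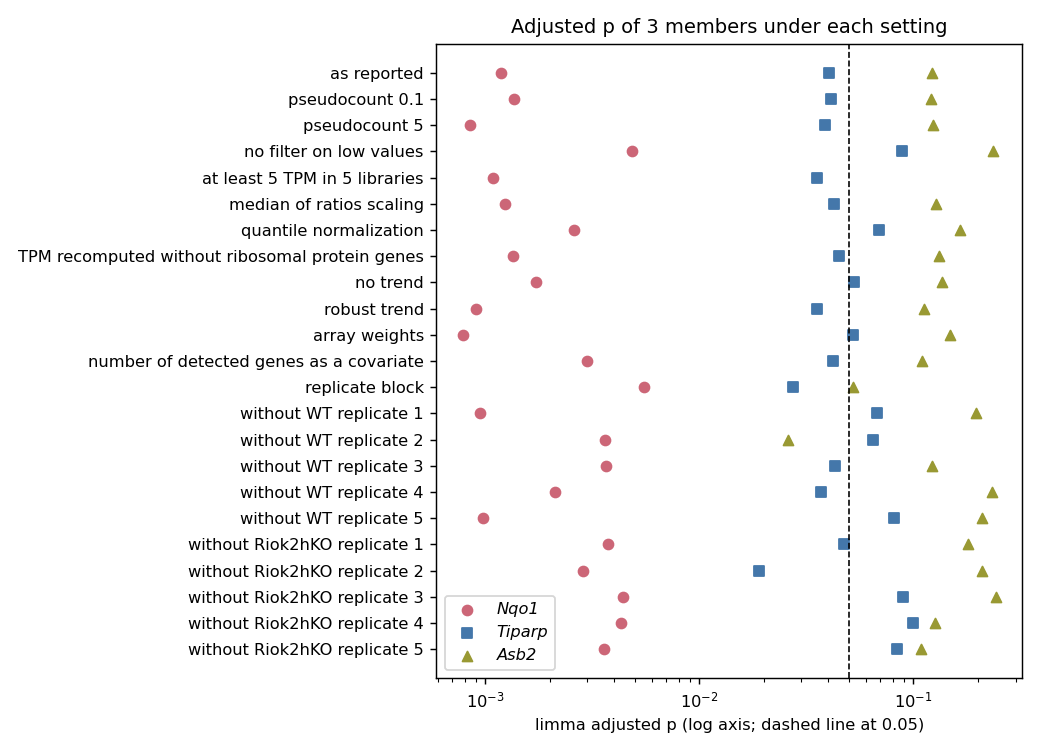
Limma adjusted p (log axis, dashed line at 0.05) of Nqo1, Tiparp and Asb2 as reported and under 22 other settings. Nqo1 stays between 0.000787 and 0.00554, Tiparp runs from 0.0190 to 0.0994 across the threshold, and Asb2 is under it once, without WT replicate 2.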

How the data were processed

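Libraries of sorted IL-22+ CD4+ T cells were prepared with SMART-seq2, which does not mark strand, and read as pairs of 38 nucleotides. The deposited values are TPM, which the authors obtained with Bowtie (version not stated) on the mm10 transcriptome and RSEM, per the labels' extract protocol; RSEM 1.2.8 is from the submitters' processing notes. Each library's TPM sums to 1000000, so abundant transcripts that rise reduce the TPM of others, and depth and counting error are unknown.

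Of 23420 rows, 27 with a date in place of a symbol were left out. Libraries were grouped by their labels. The model was fitted to log2(TPM + 1) by limma 3.58.1 under R 4.3.3 (mean-variance trend, genotype term, Benjamini-Hochberg over all 10332 tested genes), a script tested on simulated data. Genes under the filter were compared by two-sided exact permutation tests. Fold changes on this scale understate changes of low genes. Alternatives covered pseudocount, filter, scaling, variance model, weights, detected genes (TPM above 0), the block and each library left out. The members and lists were chosen with earlier results of these data known. Named genes are the 9 members, up to 4 genes of each list by smallest p, genes of the receptor complex (not all are reported here) and the 3 most similar profiles; every other list or marker gene in the text was named after its values were seen, apart from Riok2 and Il22, which check the labels and the sort. Plots used Python 3.11.15 and matplotlib 3.10.9.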

Additional observations from a re-analysis of the deposited data

How the results depend on the processing

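Nqo1 was called higher under all 22 alternatives, with a log2 fold change of 0.33 (pseudocount 5) to 0.63 (pseudocount 0.1). Tiparp kept its direction in all 22 and its call in 12. With all libraries kept it lost the call without a filter on low values (adjusted p = 0.0886), with quantile normalization (0.0690), with no trend (0.0529) and with array weights (0.0522). Asb2 was called in 1 of its 21 alternatives. Arnt and Gstt1 were called in 0 of 22, and Cyp1a1 in 0 of 21, its log2 fold change running from -0.036 (without Riok2hKO replicate 5) and -0.017 (without Riok2hKO replicate 3) to 0.17 (without Riok2hKO replicate 2).

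The number of members called was 2 in the main fit, 1 with quantile normalization, with no trend and with array weights, and 1 to 2 with each library left out. The 2 were not always the same genes: without WT replicate 2 they were Nqo1 and Asb2, and without a filter Nqo1 and Cyp1b1. Of all tested genes 1770 were called in the main fit and 1199 to 1749 with a library left out. Libraries with the same replicate number did not deviate together (r = -0.034 to 0.068 across genes). Of the WT libraries, only replicate 1 correlated best with the Riok2hKO library of its own number. With the replicate number as a block the count of called genes was 1444. Both member calls held there (limma adjusted p = 0.00554 for Nqo1 and 0.0273 for Tiparp). The number that rose stayed within 1.5 times the main count for T cell genes (8 to 9) and NRF2 targets (4 to 7). For genes of ligand supply and clearance it varied from 0 to 3, for the xenobiotic list from 1 to 3 and for the ASB list from 0 to 1. The number of other glutathione S-transferase genes that fell varied from 0 to 2. For Cyp1b1, Ahr and Ahrr, leaving out libraries and pseudocount 0.1 without a filter were chosen after seeing the data; with the latter, the fold change of Cyp1b1 was 1.21 (adjusted p = 0.0221). Values below 1 TPM limit what can be said of Cyp1b1, Ahr and Ahrr.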
